A study of Mus musculus with 63 samples.

Results

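Hearts of Cast and WSB mice were compared across all genes by RNA sequencing. Both are wild-derived inbred strains, Cast coming from Mus musculus castaneus and WSB from Mus musculus domesticus, and both are founders of the Diversity Outbred mouse population. The comparison took every library whose label gives Cast as the strain (n = 7) and every library whose label gives WSB (n = 8), which is 15 of the 63 heart libraries of the series. All 63 libraries, of 8 founder strains, come from mice on the same diet rich in fat (45%) and sugar, so no strain has a group on another diet. Tissue was frozen and pulverised, and polyadenylated RNA was selected with oligo-dT beads. The labels used here give no sex, age or genotype beyond the strain, and nothing beyond identifiers says that the libraries of a strain are separate animals. P-values thus measure the spread between libraries, which the gene tests took over all 63 unless a smaller fit is named. As Cast and WSB hold libraries that stand apart from their strain, described below, this shared spread may be smaller than their own.

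The heart beats by the cyclic sliding of myosin heads along actin in the sarcomere, set off by calcium released from the sarcoplasmic reticulum after each action potential. Potassium, sodium and pacemaker channels shape that action potential, and fatty acids are the main fuel of the adult muscle. Around the muscle cells lie fibroblasts, which make the collagen matrix, and endothelial cells, pericytes, nerve sheath cells and immune cells. Founder strains carry many sequence differences, so each gene's level in whole heart can differ by regulation, by gene copies and by the mix of cells. In whole tissue, fewer cells of a type and less RNA per cell cannot be told apart.

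WSB replicate 1 stood apart from the other libraries of its strain. In that library 2735 genes lay at least 2-fold from the median of the other WSB libraries, against 38 to 82 genes in the other 7. Its transcripts in the longest 25% (over 2560 bases) were -0.306 log2 from the median of the other WSB libraries, and those in the shortest 25% (up to 809 bases) were 0.114. Of the Cast libraries, replicate 1 had 530 such genes, replicate 6 had 399 and replicate 5 had 357, against 64 to 153 in the other 4. Xist, the RNA that silences an X chromosome in female cells, was above 300 CPM (counts scaled to the same TMM-adjusted total in every library) in 3 Cast and 4 WSB libraries and at most 1.18 CPM in the other 4 of each strain. Total counts ran from 21792488 to 38669989 in Cast libraries and from 24787743 to 30955103 in WSB libraries. The 9 ventricular muscle markers summed to 57050 to 63800 CPM in Cast libraries and 47860 to 72540 CPM in WSB libraries, the low end of WSB being replicate 1. Without that library the WSB range was 63600 to 72540 CPM, which hardly overlapped that of Cast. None of the 8 lung and thymus markers was in the count table. Values written with ± are means and standard deviations of CPM over 7 Cast and 8 WSB libraries unless an SE is named. Where a named gene's log2 fold change moved by over 1.5 times or crossed the test's threshold without WSB replicate 1, without Cast replicates 1, 5 and 6 or without any 1 library, this is stated beside it, as it is for list counts that moved by over 1.5 times and by at least 2 genes.

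**Figure D1:**
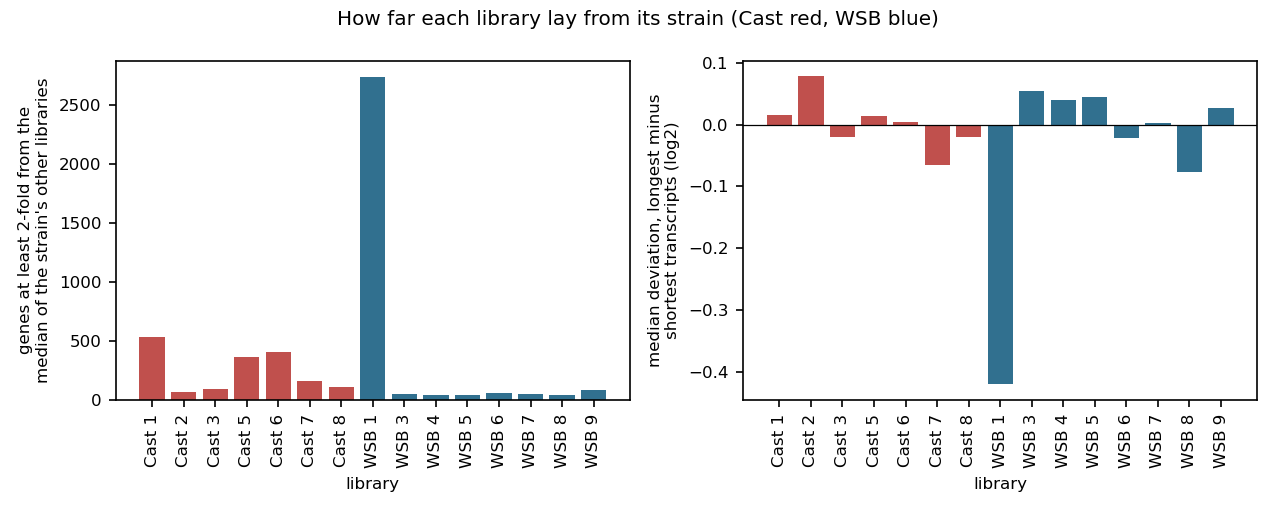
Left, the number of genes (y axis) that lay at least 2-fold from the median of the other libraries of the same strain, for each of the 7 Cast and 8 WSB libraries (x axis). Right, the median log2 deviation of the longest 25% of transcripts minus that of the shortest 25%; WSB replicate 1 sits at -0.42, and the other libraries lie between -0.076 and 0.078.

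Of 16425 genes tested, 8746 differed between Cast and WSB hearts (53.2%; edgeR quasi-likelihood test, Benjamini-Hochberg adjusted p under 0.05). Levels were higher in Cast for 4233 genes (25.8%) and lower for 4513 (27.5%). A difference of at least 2-fold was found for 1070 genes that were higher in Cast (6.51%) and 1515 that were lower (9.22%). The median log2 fold change over all genes, given throughout as Cast minus WSB, was -0.0097. Every Cast library lay above every WSB library for 1257 genes (7.65%) and below for 1307 (7.96%). Without WSB replicate 1 the test called 9169 genes (55.8%), 4627 higher (28.2%) and 4542 lower (27.7%) in Cast, and 7965 of them were also called with it, each in the same direction. In that fit, 7.37% of the genes tested were at least 2-fold higher in Cast and 8.32% at least 2-fold lower. Without Cast replicates 1, 5 and 6, 7220 genes (44%) were called, 20.4% of the genes tested being higher and 23.5% lower in Cast, and in a fit of the 15 libraries alone 6100 (37.1%), 17.7% higher and 19.4% lower. The counts of list members given below are to be read beside these shares of all genes in the same fit. The lists and their members were chosen with earlier results of these data known, so this comparison describes the lists and is not a test. With WSB replicate 1 left out, the number of genes whose libraries did not overlap was 3541 (21.6%). The typical spread between replicates, the median standard deviation of log2 CPM over 11676 genes, was 0.215 in Cast and 0.265 in WSB, or 0.134 in WSB without replicate 1. The share of called genes per chromosome ran from 46.1% on X to 58.4% on chromosome 14 among chromosomes with over 400 genes tested.

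Fbxo44, Syt12 and Hint3 had the largest differences toward Cast among genes with at least 1 CPM in both strains and no near-identical copy, leaving aside Myh7. Fbxo44, a substrate-binding subunit of a ubiquitin ligase (chromosome 4, 148152800 to 148160482, GRCm38), measured 14.4 to 23.2 CPM (median 16.9) in Cast hearts, against 0.772 to 1.41 CPM (median 1.08) in WSB hearts. Its log2 fold change was 4.1 (adjusted p = 5.3e-37, SE 0.13). Syt12, a synaptotagmin of vesicle membranes, averaged 23.6 ± 10.3 CPM in Cast and 1.39 ± 0.368 CPM in WSB, a log2 fold change of 4.08. Hint3, a nucleotide hydrolase of the histidine triad family, averaged 20.01 ± 2.18 CPM in Cast and 2.08 ± 0.4001 CPM in WSB. For Hint3 the other 6 strains had means of 15.9 to 22.3 CPM, so WSB was the strain below the rest, while for Syt12 they had 1.87 to 4.44 CPM and Cast was the strain above the rest.

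By the same levels, and with no near-identical copy, Cwc22, Cenpf and Cyfip2 had the largest differences toward WSB. Cwc22 encodes a splicing factor and lies in a segment known to vary in copy number between mouse strains (chromosome 2, 77881159 to 77946375). It measured 13.4 to 21.7 CPM (median 14.9) in Cast hearts, against 634 to 1141 CPM (median 705) in WSB hearts, with a log2 fold change of -5.52 (adjusted p = 1.4e-47, SE 0.11). The other 6 strains had means of 9.33 to 11.8 CPM, close to Cast, and WSB alone was high. Cenpf, a kinetochore protein of dividing cells, averaged 4.003 ± 1.41 CPM in Cast and 124 ± 50.7 CPM in WSB. Cyfip2, which links Rac to actin assembly, averaged 1.44 ± 0.463 CPM in Cast and 31.5 ± 10.9 CPM in WSB, and Cit, the citron kinase of cytokinesis, 1.21 ± 0.268 CPM in Cast and 18.5 ± 6.65 CPM in WSB. Myl1, a myosin light chain of fast skeletal muscle, averaged 3.51 ± 2.58 CPM in Cast and 62.1 ± 12.1 CPM in WSB, a log2 fold change of -4.16. Pon2, a paraoxonase of intracellular membranes, averaged 3.71 ± 0.841 CPM in Cast and 44.3 ± 3.41 CPM in WSB, and the other 6 strains had 24.7 to 48.04 CPM, so Cast was the strain below the rest. Ano10, of the anoctamin family, averaged 17.3 ± 1.67 CPM in Cast and 203 ± 45.4 CPM in WSB. In each of these genes the highest Cast library lay below the lowest WSB library, as the rule that chose them required.

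Among genes with an average of at least 100 CPM over the 15 libraries, 8 in each direction had the largest differences without overlap once the genes of the largest differences in the whole table, such as Myh7, Cwc22, Hspa1b and Ano10, were set aside. Hist1h1c, a linker histone, ranged from 89.4 to 457 CPM (median 126) in Cast hearts, against 19.2 to 42.8 CPM (median 27.8) in WSB hearts, with a log2 fold change of 2.68. Toward Cast followed Bnip3, a receptor for the removal of mitochondria (1.48 ± 0.14 log2), Rragd, a GTPase of the mTORC1 pathway (1.4 ± 0.13 log2), and Pcp4l1, a small calmodulin-binding protein (1.25 ± 0.11 log2). Twf2, an actin-binding protein, had 1.22 ± 0.14 log2, the tetraspanin Cd151 1.21 ± 0.053 log2 and the membrane protein Serinc3 1.06 ± 0.082 log2. Hist1h1c, Bnip3 and Twf2 were highest in Cast replicate 1, with 457, 849 and 348 CPM. Without Cast replicates 1, 5 and 6 the log2 fold change of Bnip3 was 0.84 and that of Pcp4l1 0.798, both still past the test. Toward WSB stood Rgs5, a pericyte regulator of G-protein signalling, which measured 195 to 245 CPM (median 223) in Cast hearts, against 583 to 779.5 CPM (median 619.9) in WSB hearts, and had a log2 fold change of -1.54 (adjusted p = 6.9e-32, SE 0.061). Ephx2, the soluble epoxide hydrolase, had -1.51 ± 0.11 log2. The lipid carrier Apoe had -1.16 ± 0.13 log2, and mt-Rnr2, the large ribosomal RNA of the mitochondrion, -1.35 ± 0.13 log2. The chaperones Hsp90aa1 and Dnaja1, the actin-severing protein Gsn, Cycs and mt-Nd3 belong to the same set and are described with their groups. All these values are log2 fold changes with adjusted p of at most 6.6e-11 by edgeR's quasi-likelihood test.

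Several genes were close to 0 in one strain. At most 3 counts summed over all libraries were found for 140 genes in Cast and 45 genes in WSB that had more than 3 counts in the other strain. Fam213b, a reductase of prostamide synthesis, had 0 counts in all 7 Cast libraries, against 22.6 to 43.2 CPM in WSB libraries. Against the limit that 3 counts over the group allow, that is at least 1900-fold lower in Cast. Iigp1, an interferon-induced GTPase that attacks parasite vacuoles, also had 0 counts in Cast, against 7.46 to 17.95 CPM in WSB, at least 818-fold lower in Cast. Grin2c, a subunit of the NMDA glutamate receptor, had 0 counts in Cast and 5.23 CPM in WSB on average, and Ifi202b, an interferon-induced DNA-binding protein, 0 counts in Cast and 4.93 CPM in WSB. In the opposite direction, Zfp738, a zinc finger gene, averaged 5.76 CPM in Cast and had 0 counts in WSB, at least 445-fold lower in WSB. Serpinb1c, a protease inhibitor, averaged 1.93 CPM in Cast with 0 counts in WSB, while Syt13, a synaptotagmin, and Hephl1, a copper ferroxidase, averaged 3.77 and 2.62 CPM in Cast with 2 counts and 1 count in WSB. These genes were present in one strain at moderate level and at or near the counting limit in the other. How reads of either strain align to the GRCm38 reference was not tested.

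For some of the most extreme genes a near-identical copy takes part in the counting, and their single values are uncertain. Rps12, Rpl17, Rpl9, Rpl19 and Rpl27, proteins of the ribosome, were higher in Cast by 3.305 to 5.82 on the log2 scale when counted alone. Summed with their copies, which are mostly processed pseudogenes, the log2 fold changes were -0.03 for Rps12, -0.11 for Rpl17, 0.096 for Rpl9, -0.095 for Rpl19 and -0.28 for Rpl27. Rpl37rt (4.06 alone, 0.016 summed), the ATP synthase subunit gene Atp5g2 (3.82 alone, -0.048 summed) and Mrpl23 of the mitochondrial ribosome (3.76 alone, -0.24 summed) behaved likewise. Cytochrome c, Cycs, was higher in Cast alone (1.36) and lower when summed with a copy (-0.27). Rpl12 was lower in Cast alone (-4.11) and at 0.0037 when summed. The alpha-globin gene Hba-a1 measured 0.523 to 5.87 CPM (median 2.45) in Cast hearts, against 219 to 851 CPM (median 324) in WSB hearts, but its log2 fold change of -7.27 became -0.56 when summed with Hba-a2. Ly6c1, a lymphocyte antigen, averaged 50.2 CPM in Cast and had 2 counts over the 8 WSB libraries, and summed with Ly6c2 and Ly6a the log2 fold change was 0.038. The zinc finger gene Zfp429 averaged 1.66 CPM in Cast and had 0 counts in WSB, and its sum with relatives had a log2 fold change of 0.63. For the cytochrome oxidase subunit mt-Co2 the log2 fold change was -8.496 alone and -0.37 when summed with 2 nuclear copies. Among these sums, those of Rpl27, Cycs, Mrpl23, Hba-a1, Zfp429 and mt-Co2 passed the test, with adjusted p from 4.7e-06 (Zfp429) to 0.0498 (Mrpl23). None of the others passed, with adjusted p from 0.3 (Rpl17) to 0.98 (Rpl12).

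Cardiac stress and fetal genes were led by Myh7. Of the 15 genes of that list, 5 were higher and 0 lower in Cast (median log2 fold change 0.26), against 25.8% and 27.5% of all genes tested. Myh7 encodes the slow beta-myosin heavy chain, which the mouse ventricle uses before birth and largely replaces by alpha-myosin, Myh6, in the adult (chromosome 14, 54970688 to 54994634). Cast libraries measured 2565, 1291, 1119, 3288, 8076, 898 and 1430.1 CPM of Myh7, against 93.3 to 206 CPM (median 103) in WSB. Every Cast heart was above every WSB heart, with Cast replicate 6 the highest. The log2 fold change was 4.42 (adjusted p = 5.3e-15, SE 0.38), and 3.25 without Cast replicates 1, 5 and 6. The other 6 strains had means of 142 to 936 CPM, between those of Cast and WSB. Transcripts of Myh7 and Myh6 are alike over most of their length, so reads could be split between them and the single values are uncertain. Myh6 measured 27767 to 33269 CPM (median 28798) in Cast hearts, against 13806 to 36291 CPM (median 34352) in WSB hearts. It did not pass with all libraries (log2 fold change -0.11, SE 0.089, adjusted p = 0.32) but was lower in Cast without WSB replicate 1, its lowest library (log2 fold change -0.22, adjusted p = 3.3e-05 by edgeR). The sum of both genes had a log2 fold change of 0.013 (adjusted p = 0.91), and as Myh6 makes up nearly all of it, that sum does not show whether Myh7 differs. Nppa and Nppb, the natriuretic peptide genes that rise in strained hearts, did not pass the test. Nppa averaged 694 ± 223 CPM in Cast and 660.3 ± 223 CPM in WSB (log2 fold change 0.072, SE 0.22, adjusted p = 0.8), and Nppb averaged 69.99 ± 37.5 CPM in Cast and 73.6 ± 40.2 CPM in WSB (log2 fold change -0.072, SE 0.26, adjusted p = 0.83). Mybphl, an atrial and conduction-system relative of myosin-binding protein C, was higher in Cast, at 32.4 ± 7.52 CPM in Cast and 15.2 ± 4.48 CPM in WSB.

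Sarcomere genes moved in both directions. Of 20 tested, 5 were higher and 4 lower in Cast (median -0.063), against 25.8% and 27.5% of all genes. Mybpc3, the cardiac myosin-binding protein C, was lower in Cast and measured 1298 to 1849 CPM (median 1607) in Cast hearts, against 1451 to 3190.2 CPM (median 2954) in WSB hearts. Its log2 fold change was -0.82 (adjusted p = 1.7e-12, SE 0.086), or -0.91 without WSB replicate 1, the only WSB library within the Cast range. The means of the other 6 strains, 2801 to 3683 CPM, all lay above that of Cast. Actc1, the main actin of the heart, averaged 5476 ± 1891 CPM in Cast and 8918 ± 1835 CPM in WSB, and Tpm1, the alpha-tropomyosin, 1755 ± 146 CPM in Cast and 2259 ± 204 CPM in WSB, both lower in Cast. The log2 fold change of Actc1 was -0.704, and -0.38 without Cast replicates 1, 5 and 6. Tcap, the titin cap at the Z-disc, averaged 671 ± 222 CPM in Cast and 314 ± 138 CPM in WSB, and Myoz2, a Z-disc anchor of calcineurin, 891 ± 104 CPM in Cast and 656 ± 69.4 CPM in WSB, both higher in Cast. Among 9 ventricular muscle markers, 1 was higher and 2 lower in Cast, and among 8 atrial markers, 1 was higher and 2 lower in Cast. Creatine kinase, Ckm, had a log2 fold change of -0.62 (adjusted p = 2.7e-11, SE 0.071), with libraries that did not overlap. The 5 skeletal muscle markers tested held 1 gene higher in Cast and 2 lower.

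Calcium-handling genes differed gene by gene. Of 16 tested, 3 were higher and 6 lower in Cast (median -0.16), against 25.8% and 27.5% of all genes. Without WSB replicate 1, 3 were higher and 9 lower in Cast, and in the fit of the 15 libraries alone 0 were higher and 5 lower. Ryr2, the calcium release channel of the sarcoplasmic reticulum, was higher in Cast, with 5060 to 6169 CPM (median 5528) in Cast hearts, against 1013 to 4763 CPM (median 4124) in WSB hearts; its log2 fold change was 0.54, and 0.395 without WSB replicate 1, though it missed the threshold in a fit of the 15 libraries alone (adjusted p = 0.07). Cacna2d1, an auxiliary subunit of the L-type calcium channel, was lower in Cast and measured 72.3 to 105 CPM (median 94.1) in Cast hearts, against 75.1 to 286 CPM (median 235) in WSB hearts. Its log2 fold change was -1.301 (adjusted p = 1.3e-11, SE 0.14), and the other 6 strains had means of 214 to 253 CPM, so Cast was below all. Trdn, triadin, which anchors calsequestrin to the release channel, averaged 108 ± 10.2 CPM in Cast and 178 ± 51.2 CPM in WSB, lower in Cast without overlap.

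Ion channel genes were more often lower than higher in Cast. Of 22 potassium, sodium and pacemaker channel genes, 4 were higher and 11 lower in Cast (median -0.22), against 25.8% and 27.5% of all genes. The counts differed by fit, with 2 higher and 13 lower without WSB replicate 1, 2 higher and 11 lower without Cast replicate 6, and 2 higher and 7 lower in the fit of the 15 libraries alone. Kcnv2, a silent subunit that modifies Kv2 potassium channels (chromosome 19, 27322588 to 27337179), measured 0.151 to 0.398 CPM (median 0.2302) in Cast hearts, against 15.6 to 22.5 CPM (median 19.97) in WSB hearts. Its log2 fold change was -6.302 (adjusted p = 6.3e-43, SE 0.16). The other 6 strains averaged 15.5 to 60.5 CPM, so Cast stood below all 7 others. Kcne1, the beta subunit of the slow delayed rectifier, averaged 0.536 ± 0.416 CPM in Cast and 5.498 ± 2.29 CPM in WSB, and Kcnd2, a pore subunit of the transient outward current, 6.19 ± 2.08 CPM in Cast and 32.3 ± 12.2 CPM in WSB. Scn4b, a beta subunit of the cardiac sodium channel, measured 2.85 to 17.4 CPM (median 14.01) in Cast hearts, against 18.2 to 112 CPM (median 82.6) in WSB hearts, a log2 fold change of -2.79. For Kcne1 and Scn4b the strains did not overlap, and for Kcnd2 only WSB replicate 1 lay within the Cast range. Scn4b was also low in some of the other strains, whose means ran from 4.09 to 156 CPM.

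**Figure D2:**
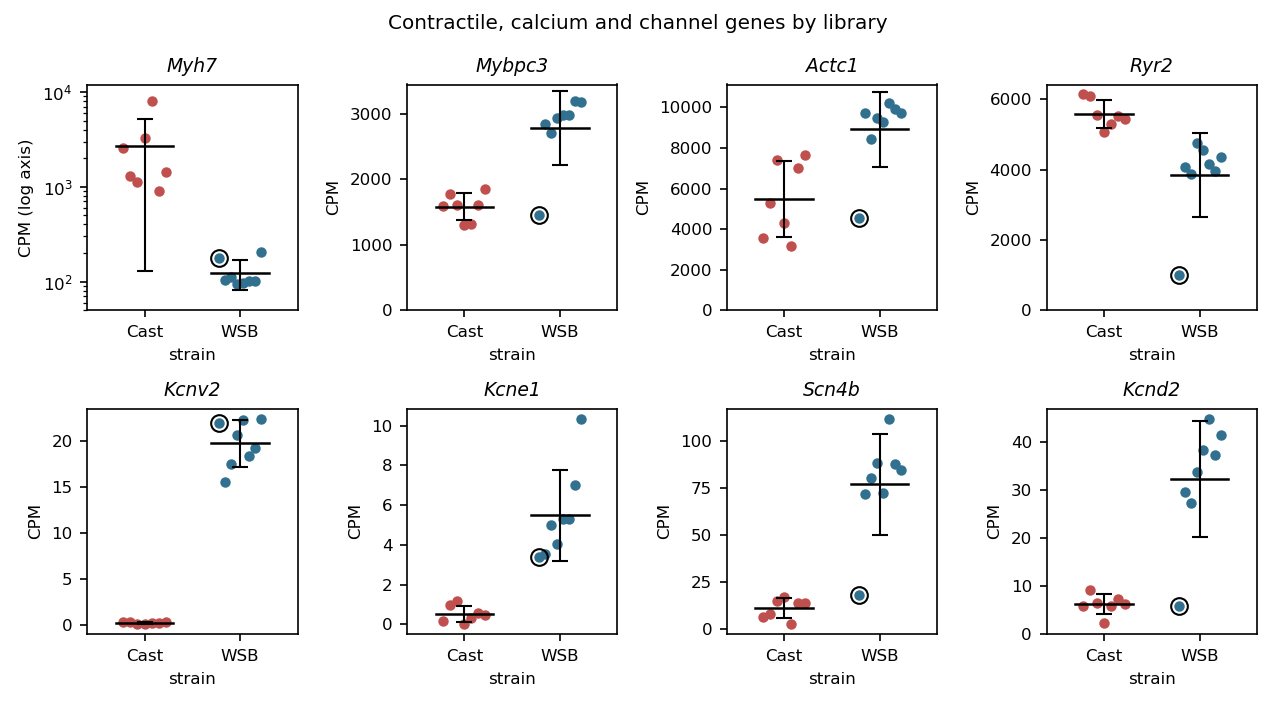
CPM (y axes) of 8 contractile, calcium and channel genes in each Cast (red, left) and WSB (blue, right) library; lines and bars are the mean and SD, the ringed point is WSB replicate 1, and Myh7 is on a log axis. Myh7 and Ryr2 lie higher in Cast, and Kcnv2, Kcne1 and Scn4b lie lower without overlap; in Mybpc3 and Kcnd2 the ringed library is the only WSB library within the Cast range.

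Signalling and structural genes of the muscle cell were mixed, where 25.8% of all genes were higher and 27.5% lower in Cast. Of 20 cardiac transcription factors, 8 were higher and 2 lower in Cast (median 0.28), with 8 higher and 4 lower without WSB replicate 1, 5 higher and 0 lower without Cast replicates 1, 5 and 6, and 6 higher and 0 lower in the fit of the 15 libraries alone. Irx3, a homeobox factor of the conduction system, averaged 20.2 ± 3.199 CPM in Cast and 9.12 ± 1.12 CPM in WSB, and Myocd, the coactivator of serum response factor, 91.2 ± 25.2 CPM in Cast and 47.8 ± 16.3 CPM in WSB, both higher in Cast without overlap. Gata4, a factor of heart formation and growth, was lower in Cast, with a log2 fold change of -0.31 (adjusted p = 0.0054, SE 0.098), but did not pass without Cast replicates 1, 5 and 6 (adjusted p = 0.16) or in a fit of the 15 libraries alone (adjusted p = 0.15). Of 17 adrenergic and natriuretic signalling genes, 3 were higher and 5 lower in Cast (median -0.004). The cGMP-dependent kinase Prkg1 averaged 17.99 ± 2.07 CPM in Cast and 7.44 ± 2.04 CPM in WSB, and the cardiac adenylyl cyclase Adcy5 146 ± 12.97 CPM in Cast and 92.04 ± 23.9 CPM in WSB, both without overlap. Npr1, the receptor for atrial and B-type natriuretic peptides, was lower in Cast (log2 fold change -0.498, or -0.297 without WSB replicate 1, which had 57.1 CPM). Of 19 genes of the intercalated disc and dystrophin complex, 4 were higher and 1 lower in Cast (median 0.12), with 2 higher and 0 lower in the fit of the 15 libraries alone. The higher ones included the desmosomal plakophilin Pkp2 at 164 ± 30.2 CPM in Cast and 124 ± 20.99 CPM in WSB. Of 22 insulin and IGF signalling genes, 7 were higher and 4 lower in Cast (median 0.12), with 4 higher and 2 lower without Cast replicates 1, 5 and 6, and 2 higher and 2 lower in the fit of the 15 libraries alone. Pik3r1, a regulatory subunit of PI3-kinase, had a log2 fold change of 0.804 (adjusted p = 0.00011, SE 0.18) but not without Cast replicates 1, 5 and 6 (0.25, adjusted p = 0.25). Igf2, a growth factor expressed from the paternal allele, averaged 42.05 ± 11.7 CPM in Cast and 26.6 ± 7.71 CPM in WSB, and Igfbp7, a secreted binding protein, 45.3 ± 14.7 CPM in Cast and 77.4 ± 37.4 CPM in WSB. The log2 fold change of Igfbp7 was -0.77, -0.51 without WSB replicate 1 and -0.47 without Cast replicates 1, 5 and 6.

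Genes of fatty acid oxidation were more often lower in Cast. Of 24 tested, 4 were higher and 11 lower in Cast (median -0.21), against 25.8% and 27.5% of all genes, with 2 higher and 8 lower in the fit of the 15 libraries alone. Acadm, Acadl and Eci1, enzymes that shorten medium and long chains and handle unsaturated ones, had log2 fold changes of -0.73, -0.59 and -0.67. Acadl averaged 777 ± 41.2 CPM in Cast and 1170.0 ± 163 CPM in WSB, and its WSB range without replicate 1, 1157 to 1305 CPM, lay above every Cast library. Cpt1a, which loads fatty acids onto carnitine and is the liver form of that enzyme, was higher in Cast, with 67.1 to 96.7 CPM (median 81.4) in Cast hearts, against 41.03 to 51.7 CPM (median 44.3) in WSB hearts (log2 fold change 0.85, SE 0.075, adjusted p = 2.9e-15). Of 22 genes of lipid uptake, droplets and PPAR targets, 6 were higher and 4 lower in Cast (median -0.015), with 5 higher and 2 lower without Cast replicate 6 or in the fit of the 15 libraries alone, and 2 higher and 0 lower without Cast replicates 1, 5 and 6. The droplet coat protein Plin2 was higher in Cast at 85.8 ± 15.6 CPM in Cast and 37.97 ± 3.52 CPM in WSB (log2 fold change 1.18, or 1.203 without Cast replicates 1, 5 and 6). Angptl4, an inhibitor of lipoprotein lipase, averaged 15.9 ± 7.01 CPM in Cast and 44.5 ± 19.8 CPM in WSB and did not pass without those libraries (adjusted p = 0.092). Of 16 PPAR, ERR and PGC-1 regulators, 3 were higher and 4 lower in Cast (median 0.043), with 2 higher and 2 lower without Cast replicates 1, 5 and 6 or in the fit of the 15 libraries alone. Ppard was higher in Cast (0.48) and the coactivator Ppargc1b lower (-0.78).

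Sterol and fatty acid synthesis genes split by gene, where 25.8% of all genes were higher and 27.5% lower in Cast. Of 19 tested, 4 were higher and 6 lower in Cast (median -0.13). Lss, lanosterol synthase, measured 11.4 to 16.1 CPM (median 13.4) in Cast hearts, against 3.07 to 5.05 CPM (median 3.56) in WSB hearts (log2 fold change 1.85, SE 0.11, adjusted p = 6.6e-22), and Acaca, which makes malonyl-CoA, averaged 56.5 ± 7.33 CPM in Cast and 25.6 ± 4.84 CPM in WSB. Dhcr7, the last step of cholesterol synthesis, was lower in Cast at 2.28 ± 0.843 CPM in Cast and 7.09 ± 1.26 CPM in WSB, as was the desaturase Scd4 at 0.925 ± 0.465 CPM in Cast and 6.45 ± 3.09 CPM in WSB. None of these 4 genes had overlapping strains. The other 6 strains had Lss means of 3.51 to 4.67 CPM, so Cast lay above all others.

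Glucose and amino acid use also held genes of either direction, as did all genes tested (25.8% higher and 27.5% lower in Cast). Of 24 genes of glucose uptake and glycolysis, 8 were higher and 8 lower in Cast (median 0.043), with 1 higher and 7 lower in the fit of the 15 libraries alone. The insulin-responsive transporter Slc2a4 was higher in Cast (0.404 ± 0.093 log2), while the enolases Eno3 and Eno1 were lower (-0.88 ± 0.078 log2 and -0.81 ± 0.063 log2), as was the phosphofructokinase Pfkp (-1.08 ± 0.12 log2). Eno3, the muscle enolase, measured 489.9 to 599.5 CPM (median 574) in Cast hearts, against 919 to 1136 CPM (median 1009) in WSB hearts. Of 18 genes of ketone and branched-chain amino acid use, 6 were higher and 3 lower in Cast (median 0.099), with 3 higher and 3 lower in the fit of the 15 libraries alone. Bcat2, the mitochondrial aminotransferase that starts the breakdown of branched-chain amino acids, measured 107 to 144 CPM (median 113) in Cast hearts, against 35.1 to 61.1 CPM (median 50.8) in WSB hearts (log2 fold change 1.27, SE 0.08, adjusted p = 1.2e-21). Mccc2, of leucine breakdown, was higher in Cast (0.77) and Hibch, of valine breakdown, lower (-1.1). Of 25 genes of the TCA cycle and pyruvate entry, 10 were higher and 4 lower in Cast (median 0.101), with 10 higher and 8 lower without WSB replicate 1, and 6 higher and 1 lower in the fit of the 15 libraries alone. Pyruvate carboxylase, Pcx, averaged 57.1 ± 11.5 CPM in Cast and 28.1 ± 5.29 CPM in WSB, and Pdk1, a kinase that shuts pyruvate dehydrogenase, 377 ± 29.8 CPM in Cast and 202 ± 61.7 CPM in WSB, while the pyruvate carrier subunit Mpc2 was lower at 135 ± 20.9 CPM in Cast and 207 ± 14.1 CPM in WSB.

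Respiratory chain genes showed no common direction, where 25.8% of all genes were higher and 27.5% lower in Cast. Of 29 nuclear subunits, 7 were higher and 6 lower in Cast (median -0.027), with 3 higher and 3 lower in the fit of the 15 libraries alone, and Cycs among the higher ones is uncertain as above. Atp5b, the catalytic subunit of ATP synthase, averaged 4687 ± 145 CPM in Cast and 3599.9 ± 352 CPM in WSB, and Uqcrc1 of complex III 992 ± 31.2 CPM in Cast and 783 ± 40.5 CPM in WSB, both above every WSB library. Sdhc of complex II was lower in Cast (-0.54 ± 0.063 log2). Of the 13 protein-coding mitochondrial genes, 6 were higher and 3 lower in Cast (median 0.19). Among complex I subunits, mt-Nd2 and mt-Nd4 were higher in Cast (0.65 and 0.42), and mt-Nd1 and mt-Nd3 lower (-0.32 and -1.06). Summed with nuclear copies, mt-Nd2, mt-Nd4 and mt-Nd3 had 0.65, 0.42 and -1.004. Mitochondrial genes together took 22.31 ± 0.931% of counts in Cast (SD, n = 7) and 22.38 ± 1.76% in WSB (SD, n = 8). That difference was smaller than the spread between libraries (two-sided exact permutation test, p = 0.93), also without WSB replicate 1, whose removal brought the WSB mean to 21.98 ± 1.44% (SD, n = 7; exact permutation p = 0.63). The share leaves out reads counted on nuclear copies, which for mt-Co2 differed between the strains. Without the mitochondrial genes that have such copies, the difference, Cast minus WSB, was -0.47 percentage points (exact permutation p = 0.32). Of 25 mitochondrial ribosomal proteins, 9 were higher and 6 lower in Cast (median 0.023), with 4 higher and 5 lower in the fit of the 15 libraries alone. The list was led by Mrpl16 (1.03) and Mrpl39 (-0.77). Of 26 cytosolic ribosomal proteins, 7 were higher and 3 lower in Cast (median 0.014), with 13 higher and 1 lower without WSB replicate 1, and 5 higher and 1 lower in the fit of the 15 libraries alone. These counts take each gene without its copies, and Rpl19 and Rpl27 among the higher ones are uncertain as above.

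Antioxidant genes were more often higher than lower in Cast. Of 30 oxidative stress and glutathione genes, 16 were higher and 5 lower in Cast (median 0.29), against 25.8% and 27.5% of all genes, and without WSB replicate 1, 19 were higher and 5 lower in Cast. The glutathione transferase Gstm2 measured 124 to 162 CPM (median 137) in Cast hearts, against 41.7 to 56.3 CPM (median 50.7) in WSB hearts (log2 fold change 1.46, SE 0.11, adjusted p = 1.5e-18), and Gstm1 211 to 382 CPM (median 276) in Cast hearts, against 125 to 162 CPM (median 148) in WSB hearts. Gclc, the catalytic subunit that limits glutathione synthesis, averaged 26.6 ± 5.21 CPM in Cast and 12.4 ± 0.823 CPM in WSB, and the other 6 strains had 11.2 to 13.3 CPM, so Cast was above all. In these 3 genes every Cast library exceeded every WSB library. Hmox1, heme oxygenase, had 129.6 CPM in Cast replicate 1 and 10.8 to 28.1 CPM in the other Cast libraries, against 6.67 to 17.3 CPM in WSB, and its log2 fold change was 1.85, 1. without Cast replicate 1 and 0.67 without Cast replicates 1, 5 and 6. Gpx4, which repairs lipid peroxides, was lower in Cast (-0.63 ± 0.095 log2). Nnt, the transhydrogenase that feeds NADPH to mitochondrial glutathione, averaged 819 ± 116 CPM in Cast and 598 ± 196 CPM in WSB (log2 fold change 0.45, SE 0.14, adjusted p = 0.0047, or 0.296 without WSB replicate 1, still past the test) and did not pass without Cast replicates 1, 5 and 6 (adjusted p = 0.12) or in a fit of the 15 libraries alone (adjusted p = 0.18). Glo1, the glyoxalase that clears methylglyoxal, averaged 141 ± 18.5 CPM in Cast and 76.9 ± 13 CPM in WSB, with a log2 fold change of 0.87 (adjusted p = 2.5e-17, SE 0.068).

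Heat shock genes were mostly lower in Cast hearts. Of 14 heat shock and chaperone genes, 1 was higher and 11 lower in Cast (median -0.79), against the 25.8% and 27.5% of all genes. Without WSB replicate 1, 1 was higher and 13 lower in Cast, and without Cast replicates 1, 5 and 6, 0 were higher and 10 lower in Cast. For 8 of the 14 every Cast library lay below every WSB library, against 7.96% of all genes. Heat shock proteins refold damaged proteins, and their genes are switched on by heat shock factor, which binds inverted GAA repeats near the start of the gene. The 250 bases before the start of 4 of them, from the RefSeq promoter table for GRCm38.p6, are shown because they carry such a repeat. Each is given 5′ to 3′ on the gene's strand, with GAANNTTC or TTCNNGAA in capitals. They lie at chr17:34972157-34972406 (- strand) for Hspa1a, chr17:34959239-34959488 (- strand) for Hspa1b, chr5:149636337-149636586 (- strand) for Hsph1 and chr4:40722218-40722467 (+ strand) for Dnaja1.
Hspa1a: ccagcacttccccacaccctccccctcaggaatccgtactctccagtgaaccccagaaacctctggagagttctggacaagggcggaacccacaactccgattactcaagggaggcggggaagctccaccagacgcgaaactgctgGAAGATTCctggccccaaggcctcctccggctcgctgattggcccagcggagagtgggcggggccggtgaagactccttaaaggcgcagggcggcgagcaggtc
Hspa1b: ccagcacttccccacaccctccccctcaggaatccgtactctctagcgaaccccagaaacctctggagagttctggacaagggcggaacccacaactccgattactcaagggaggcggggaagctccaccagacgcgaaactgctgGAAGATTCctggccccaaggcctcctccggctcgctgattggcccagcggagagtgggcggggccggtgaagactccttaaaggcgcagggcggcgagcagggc
Hsph1: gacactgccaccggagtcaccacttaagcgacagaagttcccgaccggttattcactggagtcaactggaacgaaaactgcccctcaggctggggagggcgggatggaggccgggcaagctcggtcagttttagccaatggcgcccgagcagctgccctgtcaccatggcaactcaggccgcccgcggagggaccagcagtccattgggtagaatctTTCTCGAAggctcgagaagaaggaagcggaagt
Dnaja1: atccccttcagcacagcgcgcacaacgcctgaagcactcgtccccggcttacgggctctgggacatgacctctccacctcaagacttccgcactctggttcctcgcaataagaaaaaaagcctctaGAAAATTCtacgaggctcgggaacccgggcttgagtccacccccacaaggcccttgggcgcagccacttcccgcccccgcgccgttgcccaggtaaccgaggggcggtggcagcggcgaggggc
The match begins 104 bases before the start in Hspa1a and Hspa1b, 33 in Hsph1 and 124 in Dnaja1. Each of the 2 motifs is its own reverse complement, so both strands were covered, and the 2 can overlap each other. At least 1 match was found in 12.8% of all 32851 promoter entries of the table, and in 8 of the 16 entries of listed heat shock genes (50%). By gene, that was 7 of the 11 listed genes that have an entry. These are reference sequences and say nothing of what Cast or WSB carry there.

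Hspa1b, an inducible Hsp70 (chromosome 17, 34956436 to 34959238), measured 2.96, 17.8, 16.3, 4.72, 4.55, 18.8 and 5.91 CPM in Cast libraries, against 81.3 to 431 CPM (median 191) in WSB libraries. Hspa1a, its near-identical neighbour, measured 5.202 to 25.8 CPM (median 9.82) in Cast hearts, against 51.9 to 237 CPM (median 116) in WSB hearts. As the 2 genes share reads, their sum is the safer value, with a log2 fold change of -3.82 and an adjusted p of 1.9e-05 (edgeR). Hsp90aa1, the inducible Hsp90 (chromosome 12, 110690605 to 110702728), measured 146 to 257 CPM (median 242) in Cast hearts, against 554 to 704 CPM (median 613) in WSB hearts. Its log2 fold change was -1.56 (adjusted p = 2.1e-10, SE 0.19), -1.57 when summed with 2 pseudogenes, and the other 6 strains had means of 201 to 379 CPM, so WSB was above all. Of the Hsp40 partners of Hsp70, Dnaja1 averaged 72.2 ± 27.3 CPM in Cast and 196 ± 29.7 CPM in WSB. Dnajb1 averaged 17.9 ± 6.26 CPM in Cast and 53.2 ± 19.7 CPM in WSB. Neither gene had overlapping strains, which the rule that chose Dnaja1 required. Hsph1, a nucleotide exchange factor of the Hsp110 family, averaged 84.6 ± 39.6 CPM in Cast and 221 ± 60.3 CPM in WSB, and WSB replicate 1 alone lay within the Cast range. In Cast, Hspa1b, Hsph1 and Dnaja1 were lower in replicates 1, 5 and 6 than in replicates 2, 3 and 7. Without those 3 libraries the log2 fold changes were -3.85 for Hspa1b, -1.33 for Hsp90aa1, -1.07 for Dnaja1 and -0.95 for Hsph1. Bag3, a co-chaperone of muscle that steers clients to autophagy, was the listed gene that was higher in Cast, at 392 ± 60.3 CPM in Cast and 285 ± 67.9 CPM in WSB (log2 fold change 0.46, SE 0.13, adjusted p = 0.0029), and did not pass without those 3 libraries (adjusted p = 0.11).

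**Figure D3:**
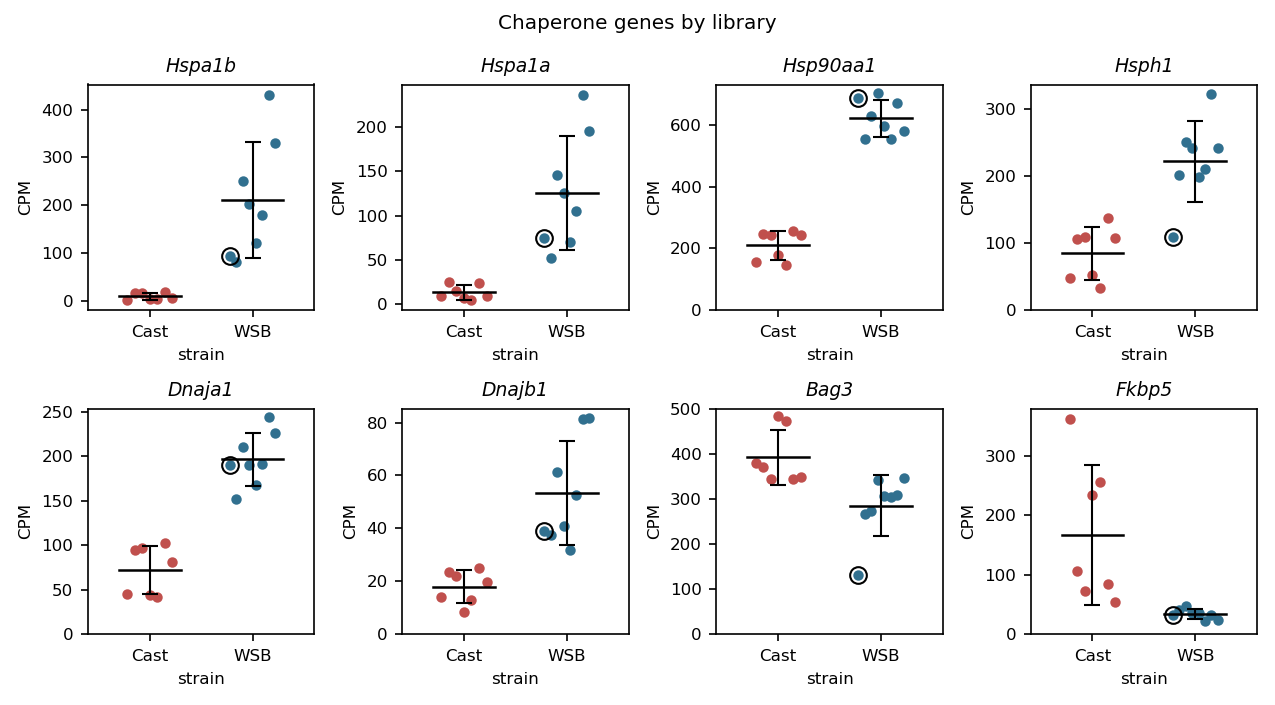
CPM (y axes) of 8 chaperone and co-chaperone genes in each Cast (red, left) and WSB (blue, right) library; lines and bars are the mean and SD, and the ringed point is WSB replicate 1. Hspa1b, Hspa1a, Hsp90aa1, Dnaja1 and Dnajb1 lie below every WSB library in all 7 Cast libraries, and Fkbp5 lies above.

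Among other stress lists, the counts of glucocorticoid-induced and ER stress genes moved when Cast replicates 1, 5 and 6 were left out. Of all genes tested, 25.8% were higher and 27.5% lower in Cast, and 20.4% and 23.5% without those libraries. Of 14 glucocorticoid-induced genes, 4 were higher and 0 lower in Cast (median 0.33), and without Cast replicates 1, 5 and 6, 2 were higher and 1 lower in Cast. Fkbp5, an Hsp90-bound regulator of the glucocorticoid receptor, measured 53.95 to 363 CPM (median 107) in Cast hearts, against 22.5 to 47.8 CPM (median 34.4) in WSB hearts (log2 fold change 2.299, SE 0.31, adjusted p = 7.8e-09), and 1.22 without those 3 libraries, which were its highest. Map3k6, a stress kinase, had 1.75 ± 0.31 log2, and 1.11 without them. Lcn2, an iron-trapping lipocalin, had 9.53, 36.6 and 29.7 CPM in Cast replicates 1, 5 and 6 and at most 2.901 CPM in the other 4, against 1.69 to 3.65 CPM in WSB, and without them its log2 fold change was -0.022. Of 14 ER stress genes, 2 were higher and 1 lower in Cast (median 0.16), with 5 higher and 1 lower without WSB replicate 1, 0 higher and 5 lower without Cast replicates 1, 5 and 6, and 0 higher and 0 lower in the fit of the 15 libraries alone. In the last of these fits edgeR found 0 of them at an unadjusted p under 0.05. Of 19 autophagy and proteasome genes, 11 were higher and 1 lower in Cast (median 0.19), and without Cast replicates 1, 5 and 6, 9 were higher and 1 lower in Cast. Bnip3, named above, measured 278 to 849 CPM (median 382) in Cast hearts, against 123 to 230.0 CPM (median 181) in WSB hearts. Gabarapl1, which coats autophagosomes, averaged 206 ± 127 CPM in Cast and 104 ± 22.7 CPM in WSB, and the cargo receptor Sqstm1 467 ± 181 CPM in Cast and 280.0 ± 33.01 CPM in WSB. The muscle ubiquitin ligase Trim63 had 0.72 ± 0.15 log2, with Cast replicate 1 the highest at 616 CPM. Without Cast replicates 1, 5 and 6, Bnip3 had 0.84, Gabarapl1 0.61, Sqstm1 0.26 and Trim63 0.29, against 1.48, 0.98, 0.74 and 0.72 with them, all still past the test (adjusted p = 0.043 for Trim63, edgeR). Leaving out Cast replicate 1 alone gave 0.61 for Gabarapl1 and 0.34 for Trim63. Of 16 clock genes, 6 were higher and 1 lower in Cast (median 0.48), with 3 higher and 1 lower without Cast replicate 7, and 3 higher and 0 lower in the fit of the 15 libraries alone. The clock output gene Dbp was at 49.5 CPM in Cast replicate 7 and 1.18 to 7.54 CPM in the other Cast libraries, against 1.02 to 9.44 CPM in WSB, with a log2 fold change of 1.92. It did not pass without Cast replicate 7 (0.38, adjusted p = 0.69), in the fit of the 15 libraries alone (adjusted p = 0.058) or with Xist as a covariate (adjusted p = 0.11). Its relative Tef averaged 88.7 ± 39.5 CPM in Cast and 48.9 ± 7.15 CPM in WSB, and did not pass without Cast replicates 1, 5 and 6 (adjusted p = 0.13). Time of day at collection is not in the labels used here. Of 16 immediate early genes, 0 were higher and 1 lower in Cast (median -0.12), with 0 higher and 3 lower without Cast replicate 8.

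Interferon-response genes were more often lower than higher in Cast. Of 26 tested, 3 were higher and 13 lower in Cast (median -0.46), against 25.8% and 27.5% of all genes, with 5 higher and 12 lower without WSB replicate 1. The list summed to 83.1 to 171 CPM in Cast libraries and 126 to 224 CPM in WSB libraries, at most 155 CPM without WSB replicate 1. Ifi44 measured 0 to 0.262 CPM (median 0.0664) in Cast hearts, against 1.79 to 3.88 CPM (median 2.34) in WSB hearts. Oas2, a sensor of double-stranded RNA, measured 0.3798 to 1.37 CPM (median 0.863) in Cast hearts, against 3.07 to 10.4 CPM (median 4.26) in WSB hearts. Irf7, the factor that amplifies interferon production, averaged 1.12 ± 0.314 CPM in Cast and 3.42 ± 1.54 CPM in WSB, and Oas1a 0.354 ± 0.246 CPM in Cast and 1.97 ± 0.757 CPM in WSB (-2.49 alone, -2.39 when summed with a copy). In these 4 genes all Cast libraries were below all WSB libraries. The promoter of Oas1a (RefSeq, GRCm38.p6, chr5:120907526-120907775, - strand, 250 bases before the start) is shown for the interferon-stimulated element, whose core GAAANNGAAA, in capitals, occurs 2 times with overlap, the first beginning 20 bases before the start.
Oas1a: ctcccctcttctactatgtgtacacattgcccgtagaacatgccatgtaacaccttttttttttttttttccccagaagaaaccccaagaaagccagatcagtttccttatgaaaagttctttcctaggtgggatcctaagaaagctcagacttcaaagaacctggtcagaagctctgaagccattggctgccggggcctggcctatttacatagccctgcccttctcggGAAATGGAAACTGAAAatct
On either strand, as GAAANNGAAA or TTTCNNTTTC, that core was in 2.98% of all promoter entries and in 10 of the 21 entries of listed interferon genes (47.6%). By gene, that was 10 of the 18 listed genes that have an entry. Mx1 and Mx2, GTPases that block viruses and of which many inbred strains carry defective alleles, went the other way. Mx1 measured 0.608 to 2.98 CPM (median 2.02) in Cast hearts, against 0 to 0.275 CPM (median 0.0477) in WSB hearts. Mx2 measured 3.57 to 15.9 CPM (median 6.6) in Cast hearts, against 1.04 to 2.11 CPM (median 1.49) in WSB hearts, and both were higher in Cast without overlap. Among the other 6 strains Mx2 means ran from 0 to 12.9 CPM.

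Antigen presentation and complement genes also differed gene by gene, where 25.8% of all genes were higher and 27.5% lower in Cast. Of 17 entries (16 symbols) for immunity-related GTPases and GBPs, 3 were higher and 6 lower in Cast (median -0.22, also with the 2 genes at 0 set to their bound). The symbol Gbp6 stands for 2 gene IDs, of which 1 had 0 counts in Cast and averaged 4.56 CPM in WSB. Summed with its near-identical copies, that gene averaged 7.14 CPM in Cast and 69.3 CPM in WSB (log2 fold change -3.28, adjusted p = 2.8e-16, edgeR). Tgtp1 and Tgtp2 share reads: Tgtp1 alone had 6.11 and Tgtp2 alone -6.42, and summed with its copies Tgtp2 had 2.41, so both are uncertain. Of 16 genes of MHC class I and antigen processing, 1 was higher and 5 lower in Cast (median 0.015), with 4 higher and 3 lower without WSB replicate 1, and 1 higher and 3 lower without Cast replicate 1 or without Cast replicates 1, 5 and 6. The class I gene H2-D1 averaged 28.4 ± 4.99 CPM in Cast and 9.32 ± 6.88 CPM in WSB, and the other 6 strains had 41.4 to 128 CPM, more than either. H2-T22 averaged 2.79 ± 0.604 CPM in Cast and 12.3 ± 2.75 CPM in WSB, a log2 fold change of -2.14 alone and -1.52 when summed with its copies. Of 8 class II genes, 1 was higher and 4 lower in Cast (median -0.82), and without Cast replicates 1, 5 and 6, 2 were higher and 0 lower in Cast. The alpha chain H2-Aa averaged 3.34 ± 2.29 CPM in Cast and 9.22 ± 2.62 CPM in WSB, with 1.82, 0.333 and 0.818 CPM in Cast replicates 1, 5 and 6. The beta chain H2-Ab1 averaged 1.58 ± 1.09 CPM in Cast and 3.62 ± 1.17 CPM in WSB. Without those libraries neither chain passed (adjusted p = 0.076 and 0.22). H2-Eb1 went the other way, at 2.45 ± 1.55 CPM in Cast and 0.217 ± 0.118 CPM in WSB. Of 19 complement genes, 6 were higher and 6 lower in Cast (median -0.0054). Masp1, a protease of the lectin pathway, measured 6.54 to 19.4 CPM (median 14.5) in Cast hearts, against 0.3904 to 1.196 CPM (median 0.7703) in WSB hearts (log2 fold change 4.11, SE 0.18, adjusted p = 1.7e-29), and C4b averaged 57.5 ± 17.2 CPM in Cast and 12.6 ± 1.69 CPM in WSB (log2 fold change 2.19 alone, 2.08 with C4a). C7, of the membrane attack complex, measured 0.679 to 4.18 CPM (median 2.13) in Cast hearts, against 4.97 to 70.6 CPM (median 23.4) in WSB hearts. C2 averaged 0.736 ± 0.293 CPM in Cast and 3.24 ± 1.76 CPM in WSB, and Cd59a, which blocks that complex, 23.9 ± 6.54 CPM in Cast and 62.9 ± 12.04 CPM in WSB. Each of these 5 complement genes had strains that did not overlap.

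Fibroblast markers were lower in Cast hearts. Of 13 tested, 0 were higher and 11 lower in Cast (median -0.91), against 25.8% and 27.5% of all genes. The same numbers were found without WSB replicate 1, against 28.2% and 27.7% of all genes. Their summed level (CPM, not scaled for length) was 960.2 to 1635 in Cast libraries and 2000 to 3415 in WSB libraries, with no overlap and no marker at 0. Gsn, gelsolin, which cuts actin filaments and is abundant in cardiac fibroblasts, measured 405 to 761 CPM (median 642) in Cast hearts, against 966 to 1954 CPM (median 1229) in WSB hearts, with a log2 fold change of -1.103 (adjusted p = 5.1e-14, SE 0.105). Pi16, a marker of vessel-associated fibroblasts, averaged 11.9 ± 3.19 CPM in Cast and 27.97 ± 13.3 CPM in WSB, and Mfap5, a microfibril protein, 9.799 ± 3.18 CPM in Cast and 19.4 ± 8.77 CPM in WSB. Without Cast replicates 1, 5 and 6, 1 was higher and 9 lower in Cast (median -0.46), against 20.4% and 23.5% of all genes.

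Matrix genes followed the same direction in part, where 25.8% of all genes were higher and 27.5% lower in Cast. The matrix list shares members with the fibroblast list, among them Col1a1, Col1a2 and Col3a1, so the counts of these lists are not independent. Of 25 fibrillar collagen and remodelling genes, 5 were higher and 13 lower in Cast (median -0.22), with 5 higher and 6 lower in the fit of the 15 libraries alone. Of the chains of type I collagen, Col1a2 averaged 81.2 ± 37.9 CPM in Cast and 167 ± 27.9 CPM in WSB. Col1a1 averaged 72.7 ± 44.3 CPM in Cast and 137 ± 27.7 CPM in WSB, and both were lower in Cast, with Col1a1 at 36.3, 24.1 and 18.8 CPM in Cast replicates 1, 5 and 6. Without those libraries the log2 fold changes were -0.59 for Col1a2 and -0.35 for Col1a1, against -1.04 and -0.91 with them, still past the test. Col3a1 had 45.4, 27.1 and 19.01 CPM in Cast replicates 1, 5 and 6 and 194 to 263 CPM in the other 4, against 192 to 367 CPM in WSB, and it missed the threshold in a fit of the 15 libraries alone (adjusted p = 0.1). Its log2 fold change was -0.99, and -0.31 without Cast replicates 1, 5 and 6 (adjusted p = 0.048). Fibronectin, Fn1, was higher in Cast, at 154 ± 56.7 CPM in Cast and 74.7 ± 25.8 CPM in WSB. So was the metalloprotease inhibitor Timp3, at 514 ± 206 CPM in Cast and 273 ± 71.3 CPM in WSB, with a log2 fold change of 0.91, and 0.42 without those 3 libraries. Of 19 basement membrane genes, 3 were higher and 9 lower in Cast (median -0.38), and without Cast replicates 1, 5 and 6, 4 were higher and 6 lower in Cast. The laminin chain Lama4 had -0.52 ± 0.065 log2 and the nidogen Nid1 -0.68 ± 0.085 log2, while Lama2, the muscle laminin, and Nid2 were higher (0.89 ± 0.12 log2 and 0.98 ± 0.079 log2). The part of the lower fibroblast markers in these matrix values was not tested.

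Markers of other cells of the heart varied, where 25.8% of all genes were higher and 27.5% lower in Cast. Of 14 endothelial markers, 1 was higher and 8 lower in Cast (median -0.29), and without WSB replicate 1, 2 were higher and 6 lower in Cast (median -0.049), and in the fit of the 15 libraries alone 0 were higher and 4 lower. The list summed to 1574 to 2023 CPM in Cast, against 1614 to 2044 CPM in the other WSB libraries and 3484 CPM in WSB replicate 1. The growth factor receptor Kdr averaged 168 ± 53.4 CPM in Cast and 244 ± 20.97 CPM in WSB and the tight junction protein Cldn5 9.55 ± 3.25 CPM in Cast and 19.8 ± 8.83 CPM in WSB, and Kdr had a log2 fold change of -0.54, or -0.27 without Cast replicates 1, 5 and 6. Of 9 Schwann cell markers, 0 were higher and 7 lower in Cast (median -1.14). Without overlap, their sum was 13.1 to 18.03 CPM in Cast and 22.4 to 46.98 CPM in WSB (at most 30.3 CPM without replicate 1). Among them the cadherin Cdh19 averaged 2.21 ± 0.741 CPM in Cast and 7.95 ± 2.18 CPM in WSB, and Sox10, the factor of glial identity, 0.437 ± 0.205 CPM in Cast and 1.47 ± 0.473 CPM in WSB. Of 8 valve and cartilage markers, 0 were higher and 6 lower in Cast (median -0.91), among them the Wnt inhibitor Wif1 (-2.68 ± 0.202 log2) and the cytokine-like Cytl1 (-1.39 ± 0.18 log2). Of 12 pericyte and smooth muscle markers, 2 were higher and 4 lower in Cast (median 0.029), with 3 higher and 2 lower without WSB replicate 1, 2 higher and 2 lower without Cast replicate 1 or without Cast replicate 2 or without Cast replicates 1, 5 and 6, and 1 higher and 2 lower in the fit of the 15 libraries alone. Desmin, Des, was higher at 1852 ± 352 CPM in Cast and 1046 ± 161 CPM in WSB, and Rgs5 was lower as above. Of 14 macrophage markers, 5 were higher and 1 lower in Cast (median 0.11), with the scavenger receptor Cd163 at 43.4 ± 9.12 CPM in Cast and 23.5 ± 4.83 CPM in WSB.

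Rarer cell types gave low levels, and their counts stand beside 25.8% of all genes higher and 27.5% lower in Cast. The 7 T and NK cell markers tested held 0 genes higher in Cast and 3 lower (median -2.22), with 0 higher and 5 lower in the fit of the 15 libraries alone, and summed to less than 3 CPM in each library. Of 12 B and plasma cell markers, 0 passed edgeR's test (median 1.33), 4 had an unadjusted p under 0.05, DESeq2 called 4 and limma 0. Other fits called some of them, with 4 higher and 0 lower without Cast replicate 5, 3 higher and 0 lower without Cast replicate 6, 2 higher and 0 lower without WSB replicate 9, and 5 higher and 0 lower without Cast replicates 1, 5 and 6 or in the fit of the 15 libraries alone. The list had sums of 2.33 to 26.3 CPM in Cast and 1.81 to 14.9 CPM in WSB. The 4 neutrophil markers tested held 2 genes higher in Cast and 0 lower, and without Cast replicates 1, 5 and 6, 0 genes higher in Cast and 0 lower (0 with an unadjusted p under 0.05). The 2 genes were S100a9, an inflammatory calcium-binding protein, and Csf3r, the receptor for granulocyte colony-stimulating factor, both highest in Cast replicates 5 and 6. S100a9 measured 0.684 to 11.6 CPM (median 1.53) in Cast hearts, against 0.403 to 1.55 CPM (median 0.7099) in WSB hearts, and did not pass without Cast replicate 6 (adjusted p = 0.081). Csf3r measured 1.95 to 9.51 CPM (median 2.51) in Cast hearts, against 0.973 to 3.25 CPM (median 1.94) in WSB hearts, and did not pass without Cast replicate 5 (adjusted p = 0.082). Of 8 white adipocyte markers, 3 were higher and 0 lower in Cast (median 1.16), with 5 higher and 0 lower without WSB replicate 1. The 3 were Pck1, an enzyme of glycerol formation, at 9.83 ± 8.43 CPM in Cast and 1.12 ± 1.43 CPM in WSB, and the droplet proteins Cidec, at 5.204 ± 3.62 CPM in Cast and 1.02 ± 1.26 CPM in WSB, and Plin1, at 2.77 ± 2.32 CPM in Cast and 0.768 ± 0.875 CPM in WSB. Plin1 did not pass without Cast replicate 8 (adjusted p = 0.13) or without WSB replicate 5, 6 or 8 (adjusted p from 0.051 to 0.052). The list had sums of 1.302 to 86.2 CPM in Cast and 1.14 to 55.4 CPM in WSB, at most 18.7 CPM without WSB replicate 1. Cidec is also in the lipid droplet list, and the part of fat tissue in it was not tested. Of 7 brown adipocyte markers, 3 were higher and 3 lower in Cast (median 0.195), with 0 higher and 3 lower without Cast replicates 1, 5 and 6. Of 8 erythroid markers, 1 was higher and 4 lower in Cast (median -0.37), with 1 higher and 2 lower without WSB replicate 1 or without Cast replicates 1, 5 and 6 or in the fit of the 15 libraries alone. They had sums of 735 to 2089 CPM in Cast and 1089 to 4058 CPM in WSB, the highest being WSB replicate 1. The erythroid counts take each gene alone, and Hba-a1 among the lower ones is uncertain as above. Of 9 mesothelial and epicardial markers, 3 were higher and 1 lower in Cast (median 0.012), with 1 higher and 1 lower without Cast replicate 5 or in the fit of the 15 libraries alone, and 1 higher and 2 lower without Cast replicates 1, 5 and 6. Of 7 lymphatic endothelial markers, 1 was higher and 0 lower in Cast, with 3 higher and 1 lower without WSB replicate 1. Of 19 imprinted genes, 5 were higher and 6 lower in Cast (median -0.033), with 4 higher and 3 lower in the fit of the 15 libraries alone. The cell cycle inhibitor Cdkn1c was higher in Cast (0.92 ± 0.14 log2) and the maternally expressed Rian lower (-1.14 ± 0.15 log2).

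**Figure D4:**
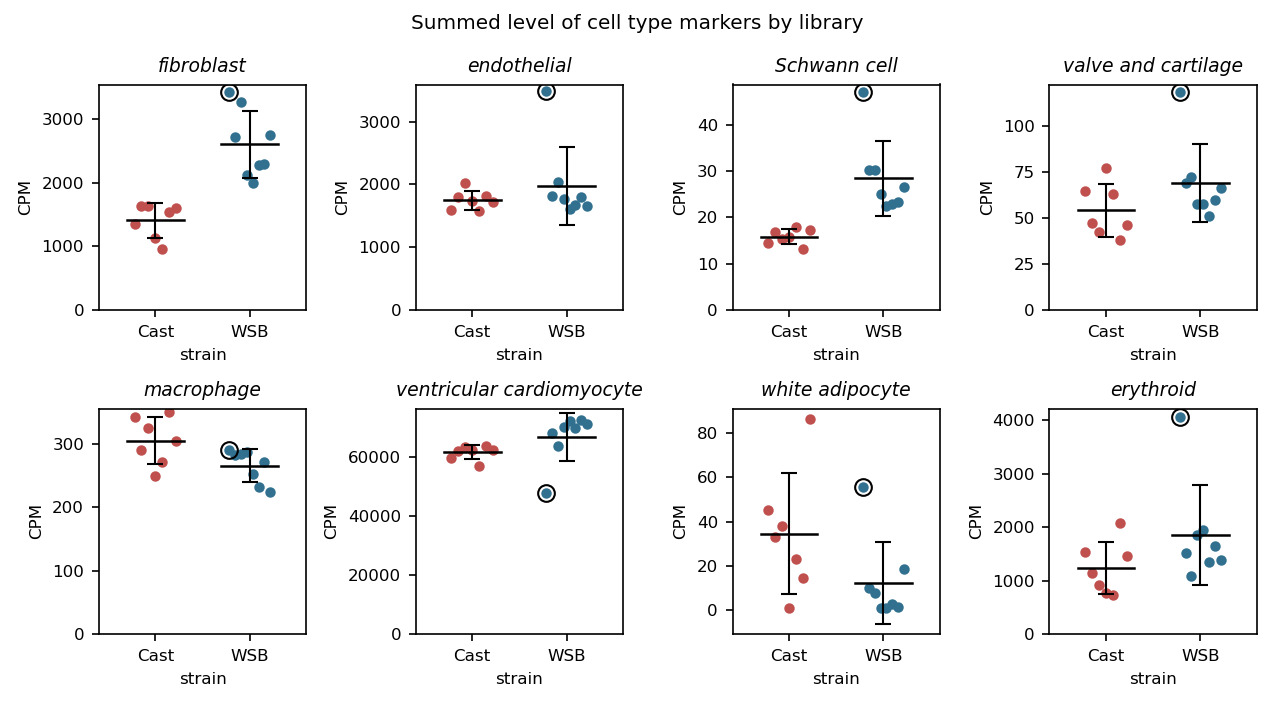
Summed CPM (y axes) of 8 lists of cell type markers in each Cast (red, left) and WSB (blue, right) library; lines and bars are the mean and SD, and the ringed point is WSB replicate 1. Fibroblast and Schwann cell sums are lower in every Cast library than in any WSB library, and the ringed library is the lowest for ventricular muscle and the highest for endothelial, valve and erythroid markers.

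**Figure D5:**
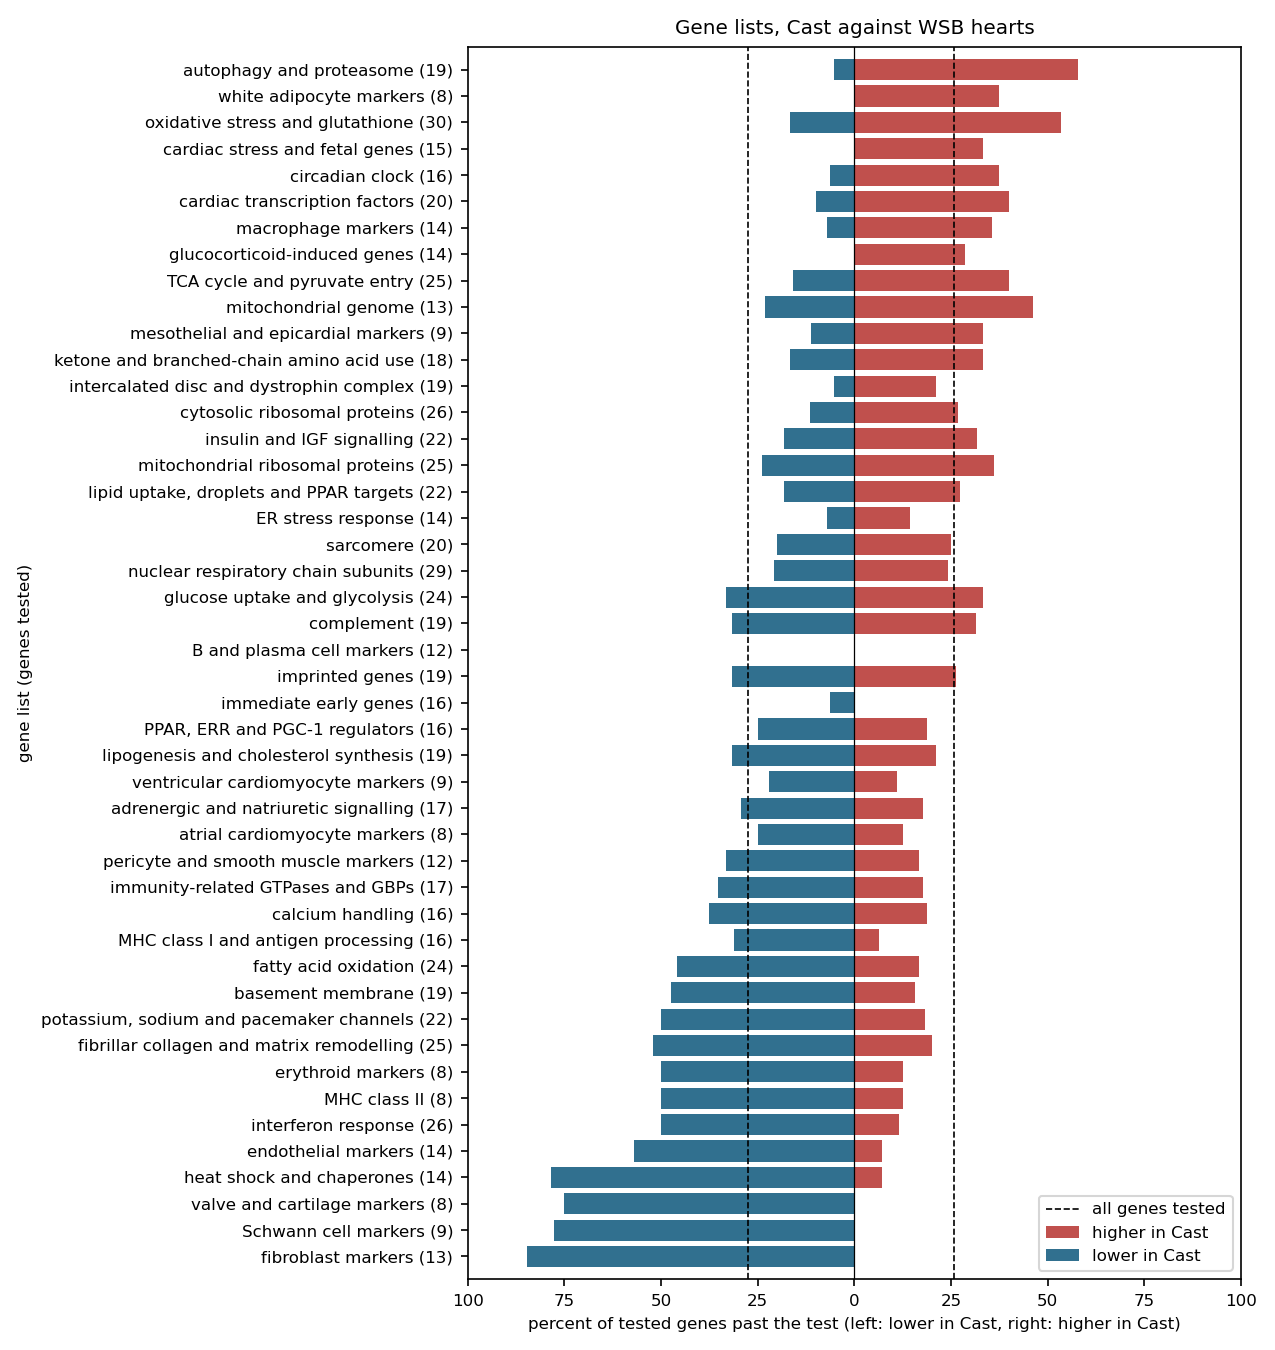
Percent of the tested genes of each list (y axis, number tested in brackets; lists of at least 8 genes) that passed the test, higher in Cast to the right and lower in Cast to the left; dashed lines are the shares over all 16425 genes, 25.8% and 27.5%. Fibroblast, Schwann cell and heat shock lists extend farthest to the left, and the autophagy and oxidative stress lists farthest to the right.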

How the data were processed

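RNA was extracted from pulverised frozen hearts with TRIzol and MagMAX beads, and libraries were made from polyadenylated RNA with the KAPA mRNA HyperPrep kit after ERCC spike-in RNA was added, per the labels' protocols. The spike-in was not analysed here. The authors deposited a table of expected counts (19220 genes, 63 libraries, 18.4% of values not whole at a tolerance of 1e-06), in which each gene is above 0 in at least 32 libraries. A second deposited table holds variance-stabilised log2 values of the same libraries. The submitters' processing notes name DESeq2 and GRCm38. Which aligner and which counter were run is not given in the sources used here.

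Counts were rounded to whole numbers and fitted with edgeR 4.0.16 (R 4.3.3; TMM factors, filterByExpr with a minimum count of 10, robust quasi-likelihood fit with 1 coefficient per strain over all 63 libraries, 55 residual degrees of freedom). This left 16425 genes and set aside 2795. The contrast was Cast minus WSB, with Benjamini-Hochberg adjustment over all genes tested and a threshold of 0.05. The SE of a log2 fold change is its size divided by the square root of F. The mitochondrial share was compared by an exact permutation test. Near-identical copies are transcripts aligned at 95% identity or more over 50% or more of the shorter (minimap2 2.31, GENCODE transcripts). On simulated counts for 16425 genes, the fit recovered 77% of 100 genes changed by 0.5 log2 and 98% of 100 changed by 1, with 9 false calls among 16225 unchanged genes. The simulation changed 200 genes and had no library that stood apart. The data differ in both, so these rates do not carry over to them. Counting floors are 3 counts over the group and cover counting error only.

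The first groups of named genes had to pass the test with strains that did not overlap. They were the 12 largest fold changes per direction with at least 1 CPM in both strains and 8 CPM in the higher, the 6 most abundant per direction with at most 3 counts in a strain, and the 8 largest per direction with at least 100 CPM. Up to 4 genes per direction came from each of 52 gene lists. These had to pass the test but could overlap between strains. Nnt, Glo1, Xist, Nppa, Nppb, Myh6 and Myh7 were always included, whether they passed or not. Genes on Y and symbols of predicted genes or clones entered the counts but not the text. A few other genes chosen this way are left out of the text. The members and lists were chosen with earlier results of these data known. Leaving out Cast replicates 1, 5 and 6 for lists and genes, leaving out these and WSB replicate 1 together, the Xist covariate for genes, and leaving out each library in turn for lists and genes were chosen after seeing the data. Alternatives with DESeq2 1.42.0 and limma 3.58.1, and others, are given with the dependence on processing. The highest correlation of log2 CPM between 2 of the 15 libraries was 0.98679, and no library was a copy of another.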

Additional observations from a re-analysis of the deposited data

Results flagged for a closer look

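For each gene named and strain, the highest and lowest library were compared with the next one. A library was marked where its gap to the next took up more of the group's range than Dixon's critical value at 95% allows. Chance marks about 5% of such groups, and here 91 of 342 were marked (26.6%), 67 of them for WSB replicate 1. That library was already shown to stand apart over all genes. Among muscle and calcium genes, WSB replicate 1 was the lowest WSB library in Myh6 at 13806, Myoz2 at 491, Mybpc3 at 1451, Actc1 at 4568, Ryr2 at 1013, Cacna2d1 at 75.1 and Scn4b at 18.2 CPM. Likewise lowest there were Kcnd2 at 5.83 and Des at 657 CPM. Of muscle and calcium genes, it was the highest in Trdn at 302 CPM. Among signalling and transcription genes, WSB replicate 1 was the lowest WSB library in Myocd at 12.2, Gata4 at 40.4, Pkp2 at 73.8, Prkg1 at 2.84, Adcy5 at 34.4, Pik3r1 at 59 and Rragd at 15.3 CPM. Likewise lowest there was Pcp4l1 at 50.8 CPM. Of signalling and transcription genes, it was the highest in Npr1 at 57.1 and Igfbp7 at 167 CPM. Among metabolic and mitochondrial genes, WSB replicate 1 was the lowest WSB library in Acadm at 337, Acadl at 786, Mccc2 at 20.2, Hibch at 39.1, Slc2a4 at 155, Pcx at 16.3 and Pdk1 at 50.8 CPM. Likewise lowest there were Atp5b at 2814, Sdhc at 250.4, Nnt at 118, Glo1 at 46.7, Mrpl39 at 32.9 and Ephx2 at 136 CPM. Of metabolic and mitochondrial genes, it was the highest in mt-Nd3 at 1330.1, Gpx4 at 582, Fam213b at 43.2, Apoe at 448, mt-Co2 at 15350 and mt-Rnr2 at 19807 CPM. Among stress and immune genes, WSB replicate 1 was the lowest WSB library in Bag3 at 132 and Sqstm1 at 206 CPM. Of stress and immune genes, it was the highest in Map3k6 at 17.9, Lcn2 at 3.65, Oas2 at 10.4, Irf7 at 6.83, Tgtp2 at 5.05, H2-D1 at 26.3 and H2-Aa at 15.03 CPM. Also highest were H2-Ab1 at 6.44, C2 at 7.19, Cd59a at 91.9, Ly6c1 at 0.0558 and Ifi202b at 6.999 CPM. Among matrix, marker and imprinted genes, WSB replicate 1 was the lowest WSB library in Lama2 at 47.5 CPM. Of matrix, marker and imprinted genes, it was the highest in Mfap5 at 37.98, Sox10 at 2.57, Cytl1 at 45.03, Cldn5 at 40.5, Cdkn1c at 21.2, Rian at 11.8 and Hba-a1 at 851 CPM. Of the remaining genes, it was the highest in Cwc22 at 1141, Cit at 34.2, Ano10 at 306, Rpl19 at 29.9, Rpl27 at 14.7 and Rpl12 at 207 CPM.

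Cast replicate 1 was the highest Cast library in Pkp2 at 227, Acadl at 866, mt-Nd1 at 16207, Hmox1 at 129.6, Gabarapl1 at 483, Trim63 at 616, Myl1 at 9.23, Hist1h1c at 457 and Twf2 at 348 CPM. Cast replicate 6 was the highest Cast library in Myh7 at 8076 and Tgtp2 at 0.0981 CPM. It was the lowest in Mrpl16 at 41.2 CPM. Cast replicate 8 was the highest Cast library in Pck1 at 26.9, Plin1 at 7.63 and Cyfip2 at 2.36 CPM. Cast replicate 2 was the highest Cast library in Cenpf at 6.93 CPM. Cast replicate 5 was the highest Cast library in Scd4 at 1.91 CPM. Cast replicate 7 was the highest Cast library in Dbp at 49.5 CPM. In the other WSB libraries, the highest of the strain were Cpt1a at 51.7 CPM in replicate 4, Hmox1 at 17.3 CPM in replicate 8, Dbp at 9.44 CPM in replicate 9, Mx1 at 0.275 CPM in replicate 5, Mrpl23 at 2.83 CPM in replicate 6 and Hephl1 at 0.0336 CPM in replicate 4. For Ly6c1 and Hephl1 these are single libraries with 1 or 2 counts in a strain otherwise at 0.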

How the results depend on the processing

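The number of genes called, 8746 by edgeR, was 8905 by DESeq2's Wald test, 8726 by limma on the deposited log2 values, 8746 with DESeq2 size factors, 8529 with no TMM factor, 9164 with no filter and 8485 without chromosomes X, Y and MT. In a fit of the 15 libraries alone it was 6100, without Cast replicates 1, 5 and 6 it was 7220, and without these and WSB replicate 1 it was 7945. Calls shared with the 8746 had the same direction except 3 of 6514 without Cast replicates 1, 5 and 6 and 8 of 6600 without those and WSB replicate 1. Leaving out 1 library at a time gave 8333 to 9169 genes called, 4023 to 4627 higher and 4305 to 4542 lower in Cast, with 1030.0 to 1210.0 at least 2-fold higher and 1367 to 1565 at least 2-fold lower. Restricting the test to genes that average 1 or more in log2 CPM, which tests fewer genes, left 387 genes at least 2-fold higher and 530.0 lower in Cast, and limma on the deposited values gave 258 and 246. Higher genes were 48.4% of calls, 44.3% with no TMM factor and 50.7% with limma.

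Replicate numbers 1, 3, 5, 6, 7 and 8 occur in both strains, but the labels do not say that a number marks a shared animal or day. Deviations of same-numbered libraries correlated at 0.0224 to 0.124, and not every library correlated best with its own number. With the number as a replicate block over these 12 libraries, 4077 genes were called, 1936 higher and 2141 lower in Cast. Without the block the same libraries gave 4719, 2282 and 2437. The mitochondrial share, not past the test, differed by -0.069 percentage points, by -0.54 over the paired numbers (exact sign-flip permutation p = 0.38), and by -0.46 to 0.33 when 1 library was left out.

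Values of named genes that changed sign were those summed with copies, -0.095 for Rpl19, -0.24 for Mrpl23, 0.0037 for Rpl12, 0.013 for Myh6, -0.0297 for Rps12, -0.11 for Rpl17, -0.048 for Atp5g2, -0.28 for Rpl27, -0.27 for Cycs and 2.41 for Tgtp2. Without Cast replicates 1, 5 and 6, Lcn2 was at -0.022, Nppb at 0.24, Nppa at -0.22 and Xist at 0.039. Nppb was at 0.10 without WSB replicate 1, and Xist at 0.029 with itself as the covariate. The cause was not tested for the others. Counts for lists moved by over 1.5 times in 19 of 104 without WSB replicate 1, in 23 without Cast replicates 1, 5 and 6, and in 31 in the fit of the 15 libraries alone. Depth limits genes of few counts, and 3 counts over the group correspond to 0.0145 CPM in Cast and 0.013 CPM in WSB.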

Other observations

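The share of genes called was alike from short to long transcripts. Over 11835 genes with a transcript length, split in 4 groups of near-equal size from the shortest to the longest, 28.1%, 27.8%, 29.9% and 29.7% were higher in Cast and 27.9%, 28.5%, 26.9% and 26.3% were lower. The median log2 fold change of the longest group was 0.028, and 0.00066 without WSB replicate 1, whose long transcripts were low. Of the 15 mitochondrial genes tested, counted without nuclear copies, 11 were called (73.3%), against 53.2% of all 16425 genes tested. The share was 46.1% of 516 genes on chromosome X and 58.4% of 560 genes on chromosome 14.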
